A study of Homo sapiens with 36 samples.

Results

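The genes described here are 40 nucleolar factors of ribosome biogenesis, followed through 36 RNA-seq libraries of HEK293T cells, a line of human embryonic kidney origin, in which TXNL1 had been knocked out. Of the 40, 35 were chosen by name, as recognized assembly factors, RNA polymerase I subunits and snoRNP proteins. They too were chosen with earlier results of these data known, so tests on them are not independent of those results. The other 5 (RRP9, DHX37, NOL6, PPAN and CCDC86) were chosen because their response to arsenite differed between the lines in these same libraries, so their values with arsenite are given as a description without a test. All 40 were found by their Ensembl gene identifiers among 61587 genes of the count table, and all 40 were among the 22486 genes that passed the filter on low counts (a sum of 10 counts or more in the 3 vector libraries without treatment).

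The cells carried an empty vector, wild-type (WT) TXNL1, TXNL1 D162R R234D, which lacks proteasome binding, or TXNL1 SxxS, in which the thioredoxin active site is mutated. All 4 lines shared the knockout, which was made in HEK293T cells and isolated as single-cell-sorted clones. The WT, D162R R234D and SxxS lines were complemented by lentiviral transduction with the TXNL1 transgene driven by the CMV promoter, and the vector line had no TXNL1 transgene. Neither native TXNL1 expression nor independent knockout lines were thus represented. Each line was left untreated (given DMSO), or treated with 600 µM hydrogen peroxide or 100 µM arsenite for 6 h, with 3 libraries in each of the 12 groups. The methods describe treatment of plated cells in triplicate, and whether replicates were made on separate days or from separate passages is not given in the sources used here, so p-values measure the spread between these libraries, which may be largely technical. TXNL1 levels, as counts scaled to library size (CPM), were higher in every complemented group than in the vector group with the same treatment (untreated means of 54.4, 62.9 and 53.4 in WT, D162R R234D and SxxS against 30.6). Vector cells still gave TXNL1 reads.

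Ribosome biogenesis starts in the nucleolus, where RNA polymerase I transcribes a long precursor rRNA. Small nucleolar ribonucleoproteins (snoRNPs) modify that precursor and guide its cleavage, the small subunit processome assembles on its leading part, and a separate set of GTPases, helicases and scaffold proteins builds the large subunit. Transformed cells that divide quickly, such as HEK293T, run this pathway at a high rate, and MYC is a well-known activator of many of its genes.

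Many of these genes shared a short promoter element. The palindromic E-box CACGTG, the sequence recognized by MYC and its relatives, was present in 16 of the 39 promoter entries matched to members (41.0%, belonging to 16 of 33 matched genes), against 7.26% of all 35116 promoters of the same length, which ran from 250 bases before to 50 bases after the annotated start. RRP1B, RRS1, NOLC1, BOP1, NOL10, NOP58 and RRP12 had no entry. The ETS-type motif CCGGAAG, searched on both strands, was found in 12 of 39 entries (30.8%) against 10.3%. Motifs were counted separately, and overlaps between them were not removed. Windows of 30 bases around the E-box follow for the 4 response-chosen genes that have one (PPAN has none in its entry), for 2 genes that rose with arsenite (UTP4 and GNL2) and for 2 that fell (UTP20 and NOP14), on GRCh38.p14 and read 5′ to 3′ on the gene's strand, with the E-box in capitals.
RRP9 chr3:51941892-51941921 − strand: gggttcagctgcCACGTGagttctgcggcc
DHX37 chr12:124989082-124989111 − strand: ggagttggtggtctgggaaccCACGTGggc
NOL6 chr9:33473894-33473923 − strand: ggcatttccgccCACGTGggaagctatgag
CCDC86 chr11:60842076-60842105 + strand: cggcgggggctgCACGTGcgcaggggtgtg
UTP4 chr16:69132621-69132650 + strand: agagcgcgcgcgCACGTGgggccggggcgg
GNL2 chr1:37595917-37595946 − strand: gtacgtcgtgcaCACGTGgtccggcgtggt
UTP20 chr12:101280083-101280112 + strand: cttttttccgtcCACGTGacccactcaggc
NOP14 chr4:2963374-2963403 − strand: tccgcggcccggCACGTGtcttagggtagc
The same 6 letters stood in promoters of genes that moved in opposite directions: 5 of the 10 matched genes that rose with arsenite held the E-box, as did 4 of the 11 that fell. A match says only that these letters are in the window.

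Library totals ran from 42072410 to 174119002 counts (median 66016833), and the 40 genes held 1.38% to 1.60% of them, with 979 to 683183 counts per gene and library. Of 7 HEK293 markers all were detected (VIM at a mean of 503 CPM), while of 9 markers of cell types that should be absent PTPRC, CD3E, PECAM1, CDH5 and ALB stayed under the filter and 4 passed it, among them COL3A1 at 12.7 CPM. A pair of WT libraries stood apart from their group. Arsenite replicate 1 and hydrogen peroxide replicate 2 deviated from their groups with an SD of 0.546 and 0.624 (log2) over 15604 genes, against 0.081 to 0.191 in the other libraries. Short and long genes deviated in opposite directions in them: against the mean of the other replicates, the 12 genes under 4 kb lay higher by a median of 0.25 and 0.45 (log2), and the 10 genes over 8 kb lay at −0.10 and −0.26. Over the 30 libraries of the other 10 groups the same medians ran from −0.14 to 0.082 and from −0.13 to 0.082. A dependence on length was not particular to the outlying pair. Untreated D162R R234D replicate 3 lay at 0.082 for the short and −0.13 for the long genes. Its deviations had a Spearman correlation with exon length of −0.64, against −0.49 and −0.58 in the outlying libraries. Over the 30 libraries this correlation ran from −0.64 to 0.67. The part of these libraries in each result is given by values with and without them.

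In untreated vector cells, expressed as CPM per kb of exon so that genes can be compared, the levels spanned from NPM1 at 429 to DDX10 at 6.56, which lay between percentiles 70.7 and 99.7 of all genes tested. The abundant nucleolar proteins came first, with NPM1 (nucleophosmin), NCL (nucleolin, 274 CPM per kb) and the snoRNP methyltransferase FBL (fibrillarin, 224 CPM per kb), while UTP20 (11.2), POLR1A (10.5) and NOL9 (9.02) were among the lowest.

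Arsenite moved most of these factors, but not in one direction. In the mean over the 4 lines, 27 of the 35 factors chosen by name passed the test, 13 higher and 14 lower (edgeR quasi-likelihood test, adjusted p < 0.05), and their median log2 change was 0.017. Of all genes tested, 68.8% passed the same test (37.4% higher, 31.5% lower) with a median of 0.060, so that the share of the factors called, 27 of 35, was near the background. The largest rises were those of NOP58, NOP56 and UTP4 and the largest falls those of RRS1, UTP20 and POLR1A. In libraries made from whole cultures, fewer cells with a transcript and less of it per cell cannot be told apart. Within single lines the counts were 23 in the vector line (10 higher and 13 lower, against 43.4% of all genes, 22.1% higher and 21.4% lower), 23 in WT (13 and 10, against 53.6%, 28.7% and 24.9%), 24 in D162R R234D (10 and 14, against 44%, 22.5% and 21.5%) and 22 in SxxS (12 and 10, against 43.6%, 22.1% and 21.5%). In every line on its own, 9 factors were higher (NOP56, NOP58, NOP2, NOL10, UTP4, UTP14A, BRIX1, GNL2 and DDX10), as were 14.9% of all genes, and 10 were lower (NOP14, NOL9, NCL, UTP20, HEATR1, RRP1B, RRS1, MYBBP1A, POLR1A and POLR1B), as were 16.1%.

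**Figure D1:**
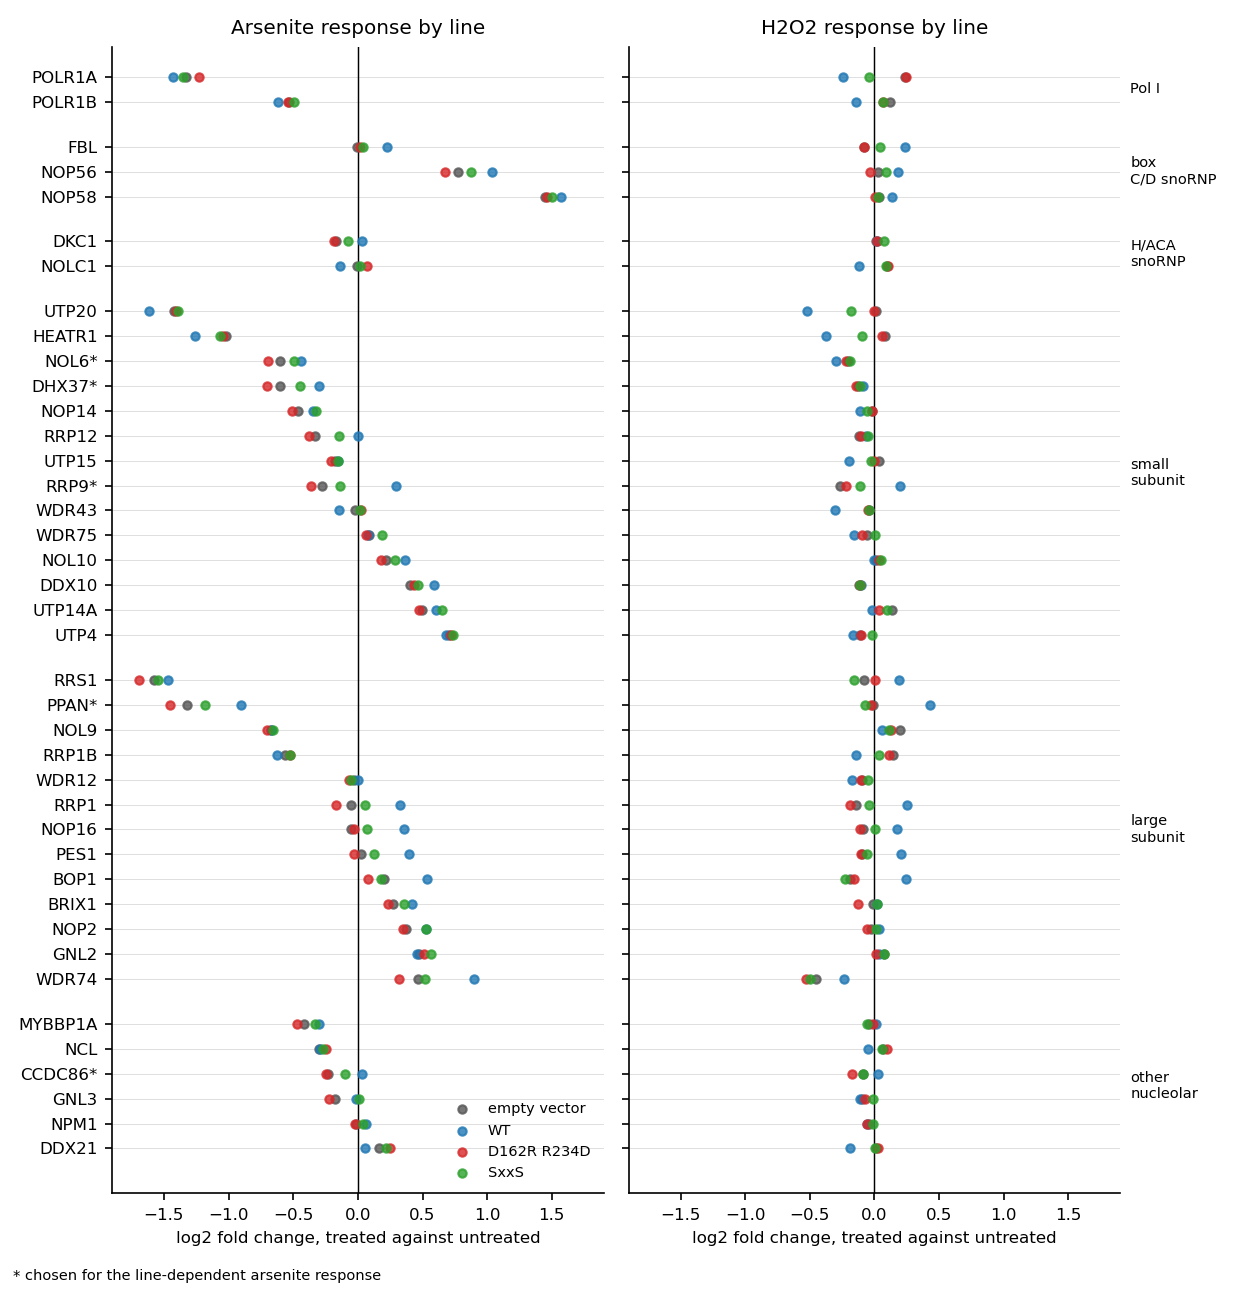
Log2 change with arsenite and with hydrogen peroxide against untreated cells (horizontal axes) for each of the 40 factors, grouped by role, with 1 point for each of the 4 lines. With arsenite POLR1A and POLR1B lie left of 0 and NOP56 and NOP58 right of 0 in every line, whereas the small and large subunit factors spread from −1.69 (RRS1) to 0.90 (WDR74).

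Both RNA polymerase I subunits fell. POLR1A, the largest subunit of the enzyme (ENSG00000068654.17, chr2:86020216-86106155, − strand), had 164 to 238 CPM in the 12 untreated libraries. With arsenite it had 82.3, 84.3 and 80.2 CPM in the vector line, 53.9, 98.7 and 101 in WT, 91.7, 85.7 and 92.0 in SxxS and 80.2, 86.3 and 82.7 in D162R R234D. Every arsenite library was below every untreated one. The mean change was −1.33 ± 0.081 (SE, adjusted p = 6.44e-15). POLR1B, the next largest subunit, had 140.4 to 170.5 CPM (median 159) in untreated and 81.7 to 124 CPM (median 109) in arsenite libraries, a change of −0.55 ± 0.06 (SE, adjusted p = 2.97e-09).

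The box C/D snoRNP proteins split. These snoRNPs carry the rRNA methyltransferase fibrillarin on a scaffold of NOP56 and NOP58. NOP58 (ENSG00000055044.11, chr2:202265736-202303661, + strand) had 208 to 242 CPM in untreated libraries. With arsenite it had 590.1, 584 and 599 CPM in the vector line, 889, 573 and 596 in WT, 619, 635 and 592 in SxxS and 656, 598 and 596 in D162R R234D. All 12 arsenite libraries lay above all 12 untreated ones, with 1 WT library, replicate 1, standing above the rest. The change was 1.49 ± 0.058 (SE, adjusted p = 9.92e-20), and it was 1.45 in the vector line, 1.57 in WT, 1.5 in SxxS and 1.46 in D162R R234D. NOP56 had 260.0 to 301 CPM in untreated libraries and, with arsenite, 475, 467 and 483 CPM in the vector line, 759, 468 and 524 in WT, 484, 497 and 479.8 in SxxS and 458, 436 and 449 in D162R R234D. Its groups did not overlap either, and the change was 0.84 ± 0.064 (SE, adjusted p = 1.16e-12). FBL, by contrast, had 452 to 549 CPM in untreated and 460.0 to 734 CPM in arsenite libraries (460.0 to 554 without WT replicate 1), with a difference of 0.068 ± 0.072 (SE, adjusted p = 0.408). NOP58 and NOP56 hold 4 and 5 annotated snoRNA genes within their bounds.

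Of the H/ACA proteins, DKC1 (dyskerin, the pseudouridine synthase) changed by −0.10 ± 0.029 (SE, adjusted p = 0.0032), which did not pass with upper-quartile scaling, and NOLC1, a nucleolar chaperone of snoRNPs, differed by −0.016 ± 0.045 (SE, adjusted p = 0.774).

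Among 11 small subunit factors 5 rose and 5 fell, where 37.4% of all genes rose and 31.5% fell. UTP4, a subunit of the complex that first joins the nascent precursor rRNA, had 123 to 138 CPM untreated and 212, 205 and 209 CPM in the vector line, 194, 221 and 232 in WT, 215, 211 and 219 in SxxS and 217, 209 and 209 in D162R R234D with arsenite. The groups did not overlap, and the log2 changes were 0.70 in the vector line, 0.68 in WT, 0.74 in SxxS and 0.72 in D162R R234D. The mean change was 0.71 ± 0.027 (SE, adjusted p = 6.43e-20). UTP14A, which activates the helicase DHX37, rose by 0.56 (log2), the helicase DDX10 by 0.47, NOL10 by 0.26 and WDR75 by 0.10, the last not passing with scaling by total counts or with no filter on low counts.

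In the other direction, UTP20, a very large scaffold of the processome, had 89.9 to 129.9 CPM untreated and 39.1, 47.8 and 38.7 CPM in the vector line, 24.3, 49.2 and 48.6 in WT, 47.5, 41.2 and 47.7 in SxxS and 40.8, 41.6 and 39.9 in D162R R234D with arsenite. Every arsenite library was lower than every untreated one, and WT replicate 1 was the lowest. The change was −1.46 ± 0.10 (SE, adjusted p = 2.06e-13). HEATR1, another long scaffold protein, had 288 to 381 CPM (median 355) in untreated and 90.3 to 184 CPM (median 168) in arsenite libraries, a change of −1.10 ± 0.10 (SE, adjusted p = 2.1e-11). UTP4, HEATR1, UTP15, WDR43 and WDR75 belong to the same early subcomplex, and their changes were 0.71, −1.10, −0.17, −0.033 (not called) and 0.10. NOP14 (−0.41) and RRP12 (−0.21), the latter an export factor, also fell.

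Among 12 large subunit factors 5 rose and 3 fell, against 37.4% and 31.5% of all genes, so that the share called was near the background. RRS1, an early assembly factor of the large subunit, had 66.2 to 75.5 CPM untreated and 25.7, 22.4 and 23.5 CPM in the vector line, 25.9, 23.4 and 22.9 in WT, 24.6, 26.7 and 23.1 in SxxS and 22.7, 22.7 and 21.9 in D162R R234D with arsenite. The groups were far apart in every line, and the change of −1.57 ± 0.038 (SE, adjusted p = 8.32e-25) was the deepest of the 40. NOL9, a polynucleotide kinase of precursor rRNA processing, had 61.1 to 76.7 CPM untreated and 40.1, 43.4 and 39.9 CPM in the vector line, 46.5, 47.6 and 47.2 in WT, 46.2, 44.8 and 43.0 in SxxS and 41.8, 42.2 and 39.5 in D162R R234D with arsenite. The change was −0.68 ± 0.028 (SE, adjusted p = 6.42e-19), with no overlap. RRP1B fell by 0.56 on the log2 scale.

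WDR74, a partner of the ATPase NVL, rose by 0.55 ± 0.081 (SE, adjusted p = 6.97e-07). It had 61.9 to 79.8 CPM untreated and 94.7, 82.2 and 85.6 CPM in the vector line, 174, 98.2 and 104 in WT, 92.9, 102 and 96.5 in SxxS and 90.6, 91.9 and 89.7 in D162R R234D with arsenite, and WT replicate 1 was again the highest. The GTPase GNL2 (0.50), the methyltransferase NOP2 (0.45), BRIX1 (0.32) and BOP1 (0.25) rose as well. BOP1 forms a trimer with PES1 and WDR12, for which the differences of 0.13 (adjusted p = 0.118) and −0.037 (adjusted p = 0.178) did not pass. WDR12 passed once both outlying WT libraries were left out, which otherwise left the count nearly as it was (28 of 35, 13 higher and 15 lower, against 73.7% of all genes, 38.4% higher and 35.3% lower).

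The remaining nucleolar proteins included NPM1 and NCL, the pair with the highest levels per kb. NPM1 had 3501 to 4254 CPM in untreated and 3477 to 4466 CPM in arsenite libraries, ranges that overlap, with a difference of 0.017 ± 0.035 (SE, adjusted p = 0.683). NCL had 2353 to 2757 CPM (median 2447) in untreated and 1904 to 2286 CPM (median 2054) in arsenite libraries, a change of −0.28. MYBBP1A fell by 0.38 on the log2 scale and GNL3 (nucleostemin) by 0.10, the latter not passing with upper-quartile scaling, whereas the helicase DDX21 rose by 0.17. Without both outlying WT libraries the largest mean changes were 1.42 for NOP58, 0.76 for NOP56, 0.71 for UTP4, −1.61 for RRS1, −1.41 for UTP20 and −1.29 for POLR1A, all still called.

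**Figure D2:**
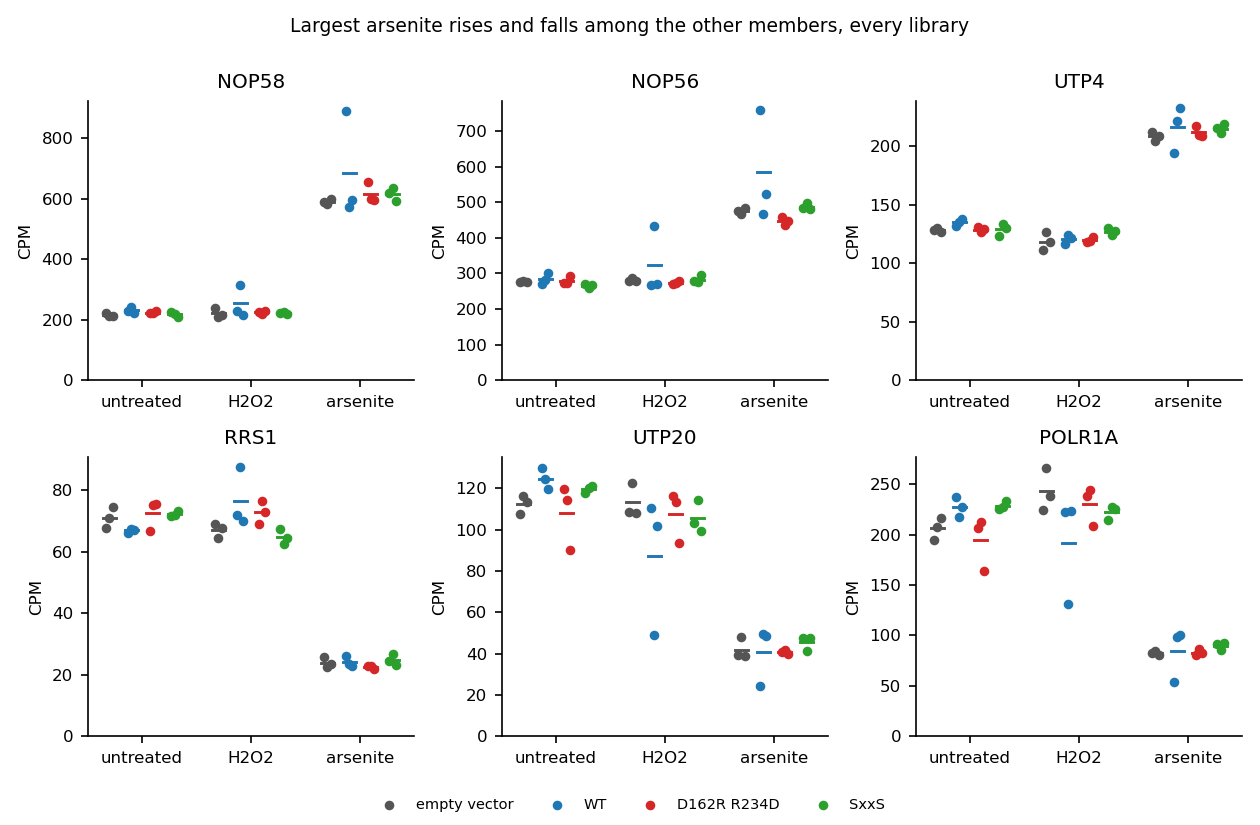
CPM (vertical axis) in each of the 36 libraries for NOP58, NOP56, UTP4, RRS1, UTP20 and POLR1A, with points for libraries and bars for the mean of each group of 3. For NOP58, NOP56 and UTP4 the arsenite points lie above all untreated points and for RRS1, UTP20 and POLR1A below them, while hydrogen peroxide points stay near the untreated level except for WT replicate 2.

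The 5 response-chosen factors act in both subunit pathways. RRP9 is a protein of the U3 snoRNP, DHX37 is the helicase that displaces U3 from the precursor, NOL6 is a processome scaffold, PPAN takes part in large subunit assembly, and CCDC86 is a nucleolar protein. The values with arsenite and without treatment below are those by which they were chosen.

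RRP9 (ENSG00000114767.7, chr3:51933429-51941904, − strand) had 81.9 to 104 CPM in the 12 untreated libraries. With arsenite it had 77.4, 76.4 and 76.8 CPM in the vector line, 125, 101 and 98.7 in WT, 80.5, 86.0 and 80.7 in SxxS and 69.2, 75.1 and 72.4 in D162R R234D. The 3 WT libraries lay above the 9 others, and WT was the line with a positive log2 change (0.29, against −0.28 in the vector line, −0.36 in D162R R234D and −0.14 in SxxS).

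PPAN (ENSG00000130810.20, chr19:10106362-10112012, + strand) had 121 to 148 CPM untreated and 51.6, 50.3 and 47.7 CPM in the vector line, 79.3, 60.4 and 61.8 in WT, 60.2, 62.3 and 56.5 in SxxS and 48.6, 49.9 and 50.5 in D162R R234D with arsenite, lower in every line. WT replicates 2 and 3 lay within the SxxS range, and replicate 1 above it. The log2 changes were −1.32 in the vector line, −0.90 in WT, −1.18 in SxxS and −1.45 in D162R R234D. Of its exons, 49.2% are shared on the same strand with the readthrough gene PPAN-P2RY11 or with P2RY11, so reads could have been split between them.

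CCDC86 (ENSG00000110104.13, chr11:60842113-60851081, + strand) had 247, 248 and 239 CPM in the vector line, 251, 261 and 261 in WT, 248, 255 and 265 in SxxS and 261, 281 and 286 in D162R R234D without treatment. With arsenite it had 218, 208 and 201 CPM in the vector line, 262, 265 and 266 in WT, 238, 246 and 233 in SxxS and 229, 232 and 237 in D162R R234D. The WT libraries lay just above their untreated values, and those of the other lines below theirs (−0.23 in the vector line, 0.035 in WT, −0.10 in SxxS and −0.25 in D162R R234D).

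DHX37 (ENSG00000150990.9, chr12:124946825-124989131, − strand) had 101 to 113 CPM untreated and 71.1, 67.8 and 64.0 CPM in the vector line, 76.2, 90.2 and 87.5 in WT, 74.5, 76.2 and 73.9 in SxxS and 62.2, 68.2 and 65.9 in D162R R234D with arsenite. NOL6 (ENSG00000165271.17, chr9:33461353-33473930, − strand) had 99.8 to 108 CPM untreated and 67.0, 66.6 and 65.9 CPM in the vector line, 66.0, 81.2 and 83.2 in WT, 73.6, 75.1 and 72.6 in SxxS and 64.1, 65.8 and 61.6 in D162R R234D with arsenite. Both were lower in all 4 lines, with log2 changes of −0.30 and −0.44 in WT and of −0.71 and −0.69 in D162R R234D. In the outlying WT replicate 1 both stood below the other WT libraries, whereas RRP9 and PPAN, whose exons are shorter in total, stood above them. WT minus vector among arsenite libraries was 0.50 for RRP9, 0.32 for DHX37, 0.21 for NOL6, 0.43 for PPAN and 0.34 for CCDC86. Without both outlying libraries the same differences were 0.37, 0.39, 0.30, 0.29 and 0.34.

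**Figure D3:**
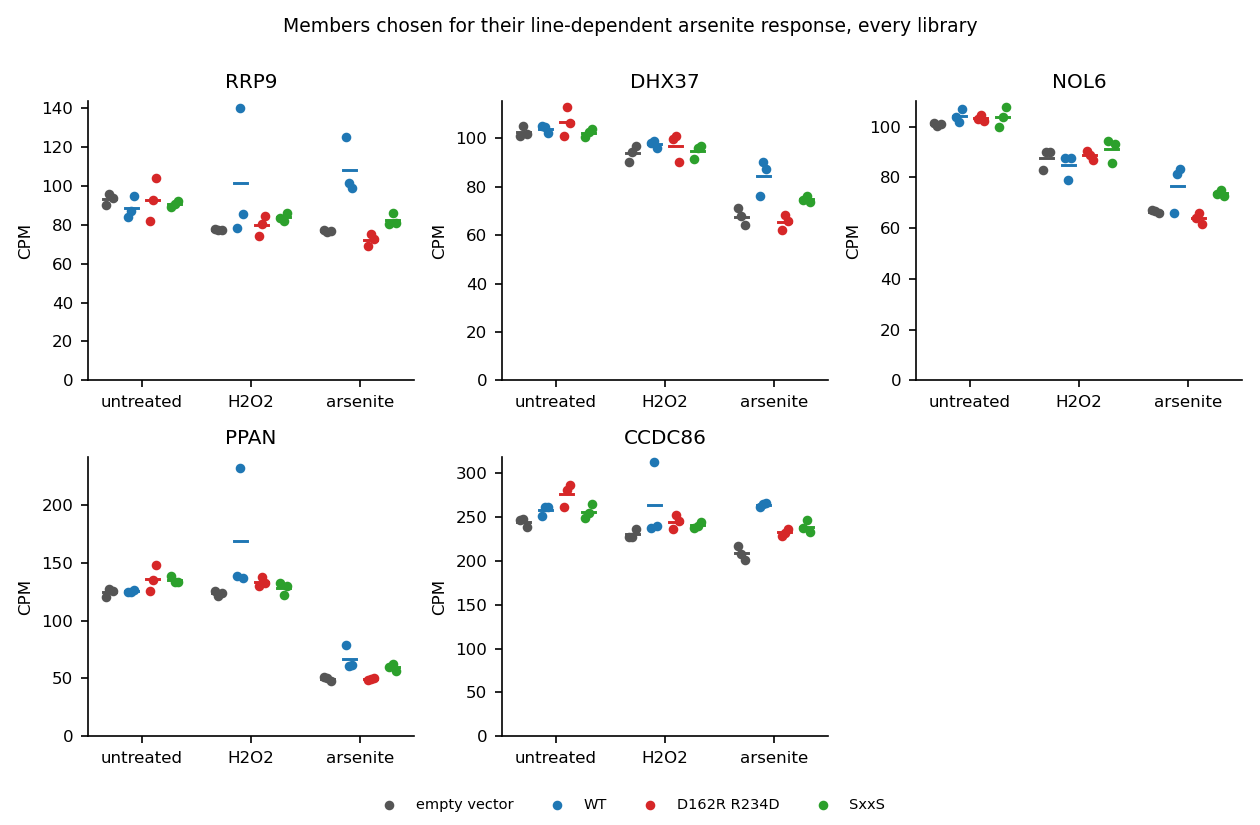
CPM (vertical axis) of RRP9, DHX37, NOL6, PPAN and CCDC86 in each library, by line and treatment, with points for libraries and bars for the mean of each group of 3. With arsenite the WT points of RRP9 (98.7 to 125) lie above those of the other lines (69.2 to 86.0), and PPAN lies lower than untreated in every line.

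The hydrogen peroxide libraries took no part in the choice of these 5, so the lines could be compared there. With peroxide RRP9 had 77.7, 77.5 and 77.3 CPM in the vector line, 78.4, 140.1 and 85.6 in WT, 83.6, 82.0 and 86.3 in SxxS and 74.1, 80.6 and 84.6 in D162R R234D. PPAN had 126, 121 and 124 CPM in the vector line, 139, 233 and 137 in WT, 133, 122 and 130.4 in SxxS and 130.1, 138 and 132 in D162R R234D. In both, WT replicate 2, an outlying library, was far above every other library. WT minus vector was 0.39 ± 0.13 (SE, adjusted p = 0.145) for RRP9, 0.45 ± 0.12 (SE, adjusted p = 0.0991) for PPAN and 0.19 ± 0.066 (SE, adjusted p = 0.163) for CCDC86, and DHX37 (0.057) and NOL6 (−0.049) were closer to 0. Without both outlying libraries the differences were 0.088 for RRP9, 0.16 for PPAN and 0.057 for CCDC86, with adjusted p of 0.749, 0.215 and 0.743. None of the 5 passed the edgeR test against vector in any complemented line. At an unadjusted p under 0.05 there were 3, all in WT (RRP9, PPAN and CCDC86), where 4566 of all genes reached the same level. The differences in D162R R234D and SxxS were 0.01 to 0.12, each with an adjusted p of 1.

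With hydrogen peroxide 4 of the other 35 passed the test in the mean over the lines, a share near the 12.1% of all genes (6.78% higher, 5.3% lower): NOL9 was higher and WDR74, WDR12 and UTP4 were lower. Without both outlying WT libraries 21 of 35 passed (5 higher, 16 lower), among them these 4, against 28.6% of all genes (14.7% higher, 13.9% lower). With all libraries the median of the 35 was −0.026, and that of all genes 0.005. Leaving out both outlying libraries gave medians of −0.048 and −0.0061. These comparisons used the same untreated libraries as those with arsenite.

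WDR74 had 61.9 to 79.8 CPM untreated and 45.3, 45.7 and 47.7 CPM in the vector line, 45.5, 81.9 and 44.3 in WT, 47.1, 45.9 and 50.8 in SxxS and 48.1, 50.4 and 53.2 in D162R R234D with peroxide. Apart from WT replicate 2, every peroxide library was below every untreated one. The change was −0.43 ± 0.082 (SE, adjusted p = 0.000495), and −0.52 ± 0.028 (SE, adjusted p = 3.71e-17) without both outlying libraries. The same gene had risen with arsenite. UTP4 and NOL9 also took opposite signs with the agents. UTP4 had 111, 126 and 118 CPM in the vector line, 116, 124 and 122 in WT, 129.6, 124 and 127 in SxxS and 118, 119 and 122 in D162R R234D with peroxide, with a mean change of −0.10 ± 0.027 (SE, adjusted p = 0.0121). NOL9 had 75.2, 77.5 and 72.7 CPM in the vector line, 83.3, 79.6 and 71.6 in WT, 75.0, 77.7 and 76.6 in SxxS and 74.2, 73.0 and 72.1 in D162R R234D, with a mean change of 0.12 ± 0.028 (SE, adjusted p = 0.00271). WDR12 had 107 to 117 CPM untreated and 104, 99.5 and 101 CPM in the vector line, 108, 94.5 and 103 in WT, 106, 111 and 107 in SxxS and 105, 103 and 103 in D162R R234D with peroxide, a change of −0.10 ± 0.024 (SE, adjusted p = 0.00386). The ranges of UTP4, NOL9 and WDR12 overlapped those of untreated cells, and UTP4 and WDR12 did not pass when no filter on low counts was used.

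Line by line, peroxide called 0 of 35 in the vector line (1.35% of all genes), 1 in WT (WDR12, lower, against 8.06% called and 2.26% called lower), 0 in D162R R234D (1.03%) and 0 in SxxS (1.02%) with edgeR. At an unadjusted p under 0.05 the 3 lines without a call had 4, 4 and 3 factors (2542, 2408 and 2208 of all genes), and DESeq2 called 1 (NOL9), 0 and 0. Leaving out both outlying libraries, 9, 9, 5 and 2 passed in vector, WT, D162R R234D and SxxS (9.87%, 8.98%, 10.4% and 6.56% of all genes).

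Arsenite and peroxide libraries compared directly differed in 27 of 35 factors, 14 higher and 13 lower with arsenite (68.7% of all genes, 37.3% higher and 31.3% lower). With upper-quartile scaling the split was 18 higher and 10 lower (64.3% higher against 51.9%), and without both outlying libraries it was 20 and 14 of 34 (74.8% of all genes, 40.1% higher and 34.7% lower).

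With all libraries, no factor passed the edgeR test between lines in untreated cells, but some did in other fits. Among untreated libraries 0 of 35 passed in WT (0.196% of all genes), D162R R234D (0.0267%) or SxxS (0.0178%) against the vector line with edgeR. At an unadjusted p under 0.05 there were 6, 0 and 0 (1574, 702 and 744 of all genes), and DESeq2 called 2 (NCL and NOP14), 0 and 0. The differences above 0 were 30, 27 and 20 of 35, with medians of 0.088, 0.032 and 0.012 against −0.0012, 0.00099 and 0.0026 for all genes. The 35 were measured in the same libraries, so their signs are not independent, and they were not tested. Without both outlying libraries, neither of which is untreated, 7 factors passed as higher in WT (DDX10, DDX21, GNL2, NCL, NOL9, NOLC1 and NPM1, with log2 differences of 0.12 to 0.20, against 2.99% of all genes called and 0.8% called higher). Among peroxide libraries 0, 0 and 0 passed (0.2%, 0.0178% and 0.0445% of all genes). At an unadjusted p under 0.05 there were 9, 0 and 1 (4566, 782 and 921 of all genes), and DESeq2 called 0 in each.

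With arsenite, 4 factors were higher in WT than in vector cells, and 0 were lower (edgeR, 1.33% of all genes called, 0.565% called higher). At an unadjusted p under 0.05 there were 21, against 4677 of all 22486 genes. DESeq2 called 16, among them these 4, and its share of all genes was not determined. The 4 were the processome proteins NOP14, RRP12, DDX10 and NOL10. NOP14 had 333, 339 and 324 CPM in the vector line, 362, 391 and 394 in WT, 366, 378 and 360.1 in SxxS and 336, 333 and 331 in D162R R234D, and the 3 WT libraries had a higher mean than each other line, with replicate 1 inside the SxxS range. RRP12 had 95.0, 90.7 and 86.9 CPM in the vector line, 134, 109 and 118 in WT, 102, 103 and 101 in SxxS and 84.5, 88.7 and 83.3 in D162R R234D. Here all 3 WT libraries were above the 9 others. WT minus vector was 0.20 ± 0.039 (SE, adjusted p = 0.00682) for NOP14 and 0.41 ± 0.078 (SE, adjusted p = 0.00682) for RRP12.

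DDX10 had 149.7, 163 and 157 CPM in the vector line, 254, 172 and 179 in WT, 166, 176 and 167 in SxxS and 176, 173 and 175 in D162R R234D, and WT replicate 1 was far above the rest, while replicates 2 and 3 lay within or just above the range of the mutant lines. NOL10 had 138, 148 and 141 CPM in the vector line, 176, 157 and 156 in WT, 140.3, 148 and 144 in SxxS and 144, 144 and 138 in D162R R234D, with all WT libraries above the others. WT minus vector was 0.37 ± 0.092 (SE, adjusted p = 0.0414) and 0.20 ± 0.05 (SE, adjusted p = 0.0426). In D162R R234D the 4 differences from vector were 0.0055, −0.087, 0.16 and 0.0013, and in SxxS 0.15, 0.17, 0.12 and 0.019. In those lines 0 of 35 passed (0.0222% and 0.0267% of all genes). At an unadjusted p under 0.05 there were 1 and 4 (720 and 777 of all genes), and DESeq2 called 0 and 1 (NOP14). NOP14 in SxxS also passed without both outlying libraries (adjusted p = 0.00522, 0.378% of all genes).

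Across all 35, 31 of the WT-minus-vector differences were above 0, with a median of 0.18 against −0.026 for all genes, while the median was 0.0095 in D162R R234D and 0.070 in SxxS. The 35 were chosen with earlier results of these data known and share the same libraries. Counts over them are therefore a description and not independent evidence. Without both outlying libraries 19 of 35 were higher in WT and 0 lower (2.96% of all genes called, 1.38% higher), among them NOP14 (0.23), RRP12 (0.32), POLR1A (0.27), POLR1B (0.19), NPM1 (0.19) and DDX10 (0.16), but not NOL10 (adjusted p = 0.0677), with a median of 0.15 against −0.0066. The count was unstable to single libraries: it was 2 without vector replicate 1, 2 without vector replicate 2, 0 without vector replicate 3, and 2, 14 and 10 without WT replicates 1, 2 and 3. Fitted on the 6 libraries compared alone it was 0. Over these and the other settings tried, the adjusted p of each of the 4 reached 0.687. The log2 change of RRP12 with arsenite was −0.33 in the vector line, 0.0016 in WT, −0.15 in SxxS and −0.38 in D162R R234D, and that of NOP14 was −0.46 in the vector line, −0.35 in WT, −0.33 in SxxS and −0.51 in D162R R234D.

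Whether the arsenite response itself differed between the 4 lines was tested for the 35 as an interaction. None passed with edgeR (0% of all genes, 5 factors at an unadjusted p under 0.05). DESeq2 called 1, NOP14 (adjusted p = 0.00144), which also passed with edgeR without both outlying libraries (adjusted p = 0.0203, 0.205% of all genes). For peroxide 0 passed (0.685% of all genes, 1 at an unadjusted p under 0.05, 0 by DESeq2).

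**Figure D4:**
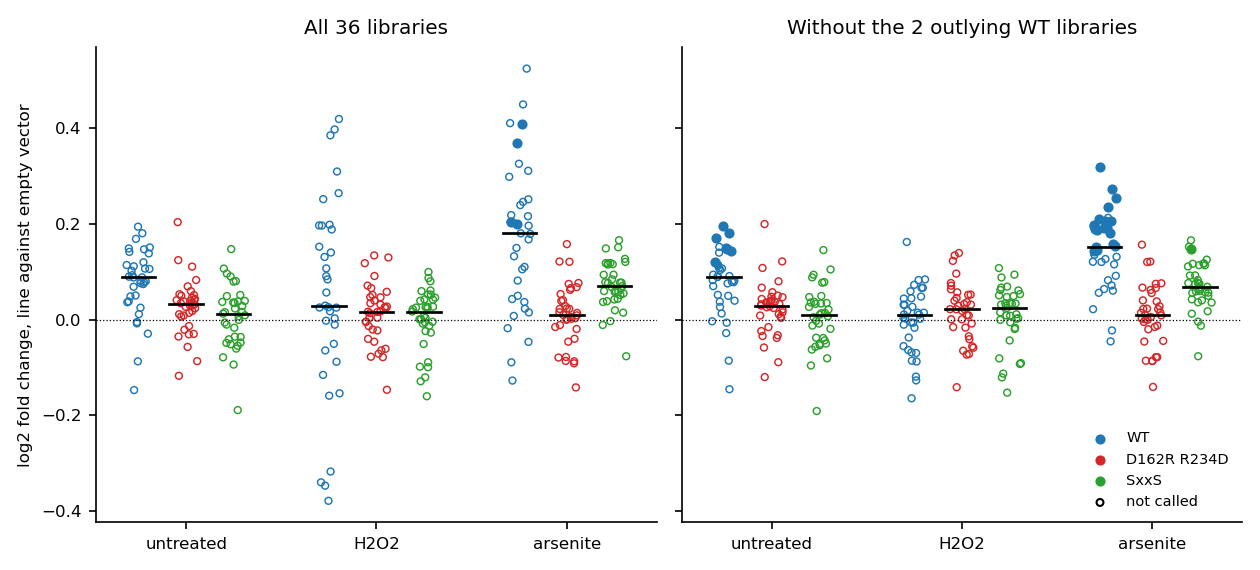
Log2 difference of WT, D162R R234D and SxxS from the vector line (vertical axis) for the 35 factors chosen by name, within untreated, hydrogen peroxide and arsenite libraries, with all 36 libraries and without the 2 outlying WT libraries, 1 point per factor, filled where called, with the median as a bar. With all libraries the points of WT with arsenite lie mostly above 0 (31 of 35, median 0.18), those of D162R R234D around 0.

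Wider lists of the same machinery also moved in both directions with arsenite, as did all genes (68.8% called, 37.4% higher and 31.5% lower). Of 13 other RNA polymerase I proteins 8 rose with arsenite and 3 fell (median 0.16), with the promoter selectivity subunits TAF1D (1.39), TAF1C (1.01) and TAF1B (0.56) rising and POLR1C (−1.43), POLR1G (−1.06) and POLR1F (−0.36) falling. Of 13 other snoRNP and assembly factors 4 rose and 3 fell, among them PIH1D1 (0.76) and ZNHIT6 (−0.74). Of 41 other small subunit factors 15 rose and 22 fell (median −0.09), including NGDN (0.61), UTP6 (0.53) and RIOK1 (0.52) upward and IMP3 (−1.35), PWP2 (−0.82) and NOL11 (−0.69) downward. Of 46 other large subunit factors 27 rose and 10 fell (median 0.15), including RSL24D1 (1.23), DDX55 (1.08) and NVL (0.69) upward and URB2 (−1.60), URB1 (−0.89) and MAK16 (−0.77) downward.

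MYC itself fell by 2.76 on the log2 scale, from 178 to 27.9 CPM in the vector line, and of 9 tested genes of the MYC network 6 fell, among them MGA (−1.54) and MNT (−0.77), while MXD1 (2.03) rose. Cytosolic ribosomal proteins were called in 72 of 79 cases, all higher (median 0.29, with RPL3 at 0.84), against 37.4% of all genes called higher. By line 3, 1 and 6 of the 79 were called in the vector, D162R R234D and SxxS lines (43.4%, 44% and 43.6% of all genes) and 76 in WT (53.6%). Without both outlying libraries 73 were higher and 1 lower in the mean over the lines, with a median of 0.20. The WT arsenite group includes the outlying replicate 1. With arsenite the median WT-minus-vector difference of the 79 was 0.37 with all libraries and 0.052 without both outlying ones. In each of these comparisons 0 of the 79 were called (1.33% and 2.96% of all genes). With peroxide, where 12.1% of all genes passed, of the other RNA polymerase I proteins 2 rose and 1 fell, of the snoRNP factors 0 and 1, of the small subunit factors 2 and 7, of the large subunit factors 2 and 1 and of the MYC network 2 and 0, with AATF (0.17), MNT (0.20) and MYC (0.11) higher and DIMT1 (−0.17) lower. Of the ribosomal proteins 0 passed with edgeR, with 1 at an unadjusted p under 0.05 (5390 of all genes). When both outlying libraries were left out and 28.6% of all genes passed, the called genes were 6 of 13 RNA polymerase I proteins, 9 of 13 snoRNP factors, 20 of 41 small subunit factors, 19 of 46 large subunit factors, 6 of 9 genes of the MYC network and 1 of 79 ribosomal proteins.

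**Figure D5:**
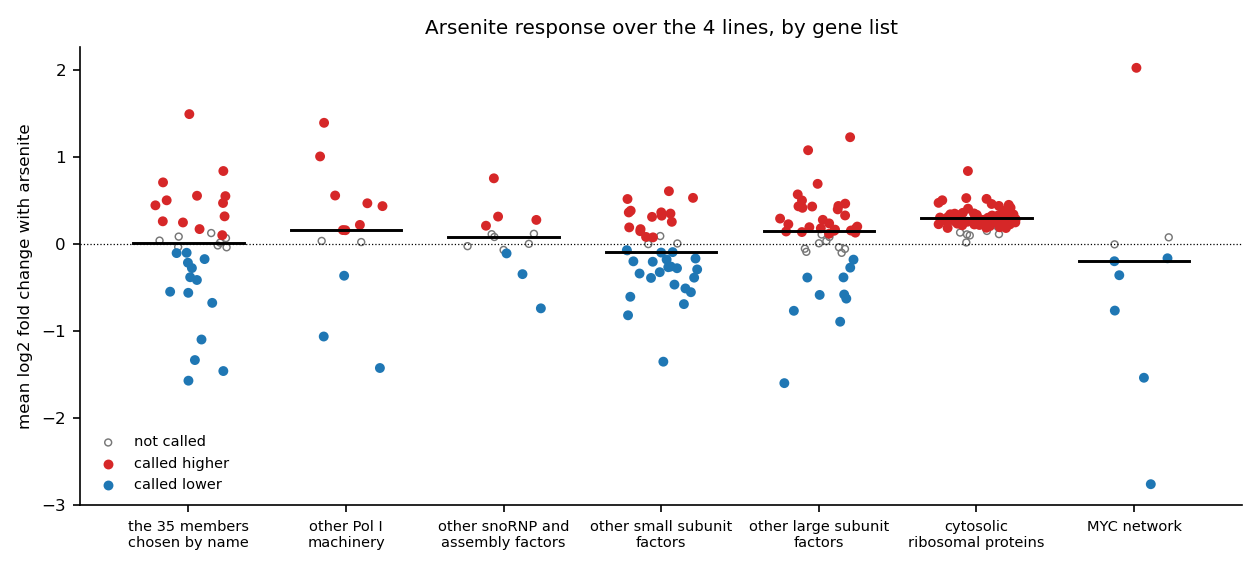
Log2 change with arsenite, mean over the 4 lines (vertical axis), for the genes of each further list and for the 35 factors, 1 point per gene, filled where the gene was called, with the median as a bar. Ribosomal proteins cluster just above 0 (median 0.29), and the assembly factor lists spread to both sides of it.

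The same lists in WT against vector with arsenite had 2 of 13 other RNA polymerase I proteins higher (POLR1G and POLR1F) and 1 of 13 snoRNP factors (GAR1). Higher too were 5 of 41 small subunit factors, 6 of 46 large subunit factors, 0 of 9 genes of the MYC network and 0 of 79 ribosomal proteins. Of all genes 1.33% were called, 0.565% higher. With both outlying libraries left out the counts were 2, 1, 13, 13, 0 and 0, against 2.96% of all genes called and 1.38% higher.

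Some of the genes host snoRNAs, a feature that their choice did not use. Within 7 of the 40 (17.5%) lay 25 annotated snoRNA genes, against 1.39% of all genes tested with a snoRNA: GNL3 held 6, NOP56 5, NOP58 4, NCL and WDR43 3 each, and PPAN and DKC1 2 each. The mean arsenite changes of the hosts ran from −1.22 to 1.49 with a median of −0.10. Across the 40 genes, which share libraries, the Spearman correlation of the arsenite change was −0.049 with gene span and −0.218 with exon length. Besides PPAN, NOP2 shared 54.4% of its exons with another gene on its strand, and HEATR1 (23.1%, LGALS8) and NOP14 (20.7%, NOP14-AS1) overlapped genes on the opposite strand. How the authors' counting treated strand is not given in the sources used here, so reads of such pairs are uncertain.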

How the data were processed

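Messenger RNA of HEK293T cells was sequenced as 36 strand-specific, 100-bp paired-end DNBseq libraries, and the authors aligned the reads to GRCh38 with qAlign. The deposited values are raw counts per gene, made by the authors. The counting tool, the annotation release and the treatment of strand and of mates are not given in the sources used here. The submitters' processing notes also name DESeq2. Unstranded counting would mix overlapping genes. RNA quality was not examined, and what set short against long genes in the outlying libraries was not tested.

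From these counts, genes whose counts summed to 10 or more in the 3 vector libraries without treatment (22486) were fitted with edgeR 4.0.16 in R 4.3.3: TMM scaling, one mean for each of the 12 groups, robust quasi-likelihood tests and Benjamini-Hochberg adjustment over all genes tested, with an adjusted p under 0.05 as the call. CPM used the TMM-scaled library sizes, and CPM per kb the gene lengths in the count table. Group spread corresponded to a biological coefficient of variation of 12.4%. DESeq2 1.42.0, other scalings, no filter, a minimum log2 change of 1, fits on the compared groups alone, a replicate block, leaving out each library and leaving out both outlying WT libraries were the alternatives. Shares of all genes called were taken for the main fit and for the fit without both outlying libraries. They were not determined for the other alternatives, DESeq2 included, nor for unadjusted p-values of the interactions. Counts of factors given there have no background beside them. The fits were also run on simulated counts with known changes in the vector arsenite group, drawn independently for each library. Such counts hold no outlying library, so the simulation says nothing about calls that depend on the outlying ones.

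The 40 genes and all lists were chosen with earlier results of these data known. Library values are given for the 5 genes chosen on their response, for the 3 largest called rises and falls with each agent among the other 35 and for those called between lines. From each further list up to 3 called rises and falls with each agent are named, with TXNL1 and MYC given in any case. Replicate numbers did not pair libraries in general: 15 of 90 correlations between same-numbered libraries exceeded 0.1. In 1 of 30 pairs of groups, untreated and peroxide D162R R234D, all 3 did (0.141 to 0.322), and there the block over all libraries called 0 of 35, as did the fit without it. Gene positions are from GENCODE 44 (61415 of 61587 identifiers matched) and promoters from RefSeq on GRCh38.p14. No p-value is given over the lists alone, and no list was tested as a set.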

Additional observations from a re-analysis of the deposited data

Results flagged for a closer look

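In 4 cases every treated library of one line lay above every untreated library of that line, while in at least 1 other line every treated library lay below every untreated one. How many of all genes tested meet the same rule was not determined, so the 4 cases are a description only. The difference between lines was not tested in these terms for the first 3 genes, since RRP9, CCDC86 and PPAN were chosen on their line-dependent response. For RRP9 the log2 change with arsenite was −0.28 in the vector line, −0.36 in D162R R234D and −0.14 in SxxS, against 0.29 in WT. For CCDC86 it was −0.23, −0.25 and −0.1, against 0.03 in WT. The WT values with arsenite include the outlying replicate 1, in which RRP9 had 125 CPM, against at most 101 in the other arsenite libraries. Over the alternatives the WT change with arsenite ran from 0.15 to 0.39 for RRP9 and from −0.058 to 0.13 for CCDC86. For PPAN the log2 change with hydrogen peroxide was 0.43 in WT and −0.08 in SxxS, and for RRS1 it was 0.19 in WT and −0.16 in SxxS. The WT values with peroxide include the outlying replicate 2, in which PPAN (233 CPM) and RRS1 (87.6 CPM) were at their highest of all 36 libraries. RRS1 did not pass the test of a difference in peroxide response between the 4 lines.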

How the results depend on the processing

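Counts of called factors among the 35 kept within 1.5 times their value in 178 of 218 results under the alternatives and in 207 of 222 with 1 library left out. Both tallies include comparisons in which a count of 0 stayed at 0, and there a minimum fold could give nothing else. They are therefore no measure of stability for comparisons without a call. Of 3369 results for single called genes, 81 lost the call and 0 changed sign. A minimum log2 change of 1 left 5, 6, 5 and 5 with arsenite in the vector, WT, D162R R234D and SxxS lines, 5 in the mean, 5 between arsenite and peroxide, and 0 for peroxide in WT and in the mean and for WT against vector with arsenite. Without both outlying WT libraries peroxide called 9, 9, 5 and 2 by line and 21 in the mean, WT against vector 7 untreated and 19 with arsenite, SxxS against vector 1 with arsenite, and the arsenite interaction 1. On the compared groups alone peroxide called 11, 0, 1 and 4 by line, WT and SxxS against vector 5 and 2 untreated, and WT and D162R R234D against vector 0 and 1 with arsenite. The share of all genes called was not determined for these fits or for the others that follow, so such counts describe the settings and not the factors. DESeq2 called 1 and 6 for peroxide in vector and WT, 2 and 16 for WT against vector untreated and with arsenite, 1 for SxxS against vector with arsenite and 1 for the arsenite interaction. For peroxide in WT the count was 2 with DESeq2 size factors, 0 with total counts, 2 with upper-quartile scaling and 0 with no filter, and with no filter the peroxide mean had 2. For WT against vector with arsenite it was 2 with total counts, 2 with upper-quartile scaling and 1 with no filter. The cause was not tested, except that a minimum fold removes calls by construction.

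With 1 library left out the counts ran from 20 to 24, 21 to 26, 23 to 24 and 22 to 22 with arsenite by line and 27 to 28 in the mean, 0 to 6 for peroxide in WT and 4 to 10 in the mean (10 without WT replicate 2), 27 to 33 between the agents, 0 to 5 for WT against vector with peroxide and 0 to 14 with arsenite. For peroxide in WT the count was 0 without any one untreated WT library and 6, 3 and 5 without peroxide replicates 1, 2 and 3, and for WT against vector with peroxide it was 4 and 5 without WT replicates 1 and 3. With the replicate number as a block the counts were 23, 23, 24 and 22 with arsenite by line, 27 in the mean, 1 for peroxide in WT, 4 in its mean and 4 for WT against vector with arsenite, and the block changed no count.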
